A study of Mus musculus with 24 samples.

Results

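The data describe how the hippocampus of FoxO6 mutant mice differed from that of wild-type (WT) mice in the hour after they had explored new objects. Of 24 microarrays in the series, 12 belong to this comparison: the 6 titled as mutant after learning and the 6 titled as WT after learning. The mutants were FoxO6-/-, labelled as null, and the controls were FoxO6+/+. All were males aged 8 to 9 weeks, and their strain is given as C57BL/6J-129sv mixed. Each mouse had met the empty arena for 10 min on the day before, then explored a pair of identical objects there for 10 min, and the hippocampus was collected 60 min later. The remaining 12 arrays, 6 mutant and 6 WT, came from mice at basal state, housed singly for at least 3 days. They serve here to ask whether a genotype difference was also present without the task. They also enter the shared estimate of spread behind the p-values and the choice of probe for each gene. The labels describe a null mutation of the whole animal and name no Cre driver. Which bases of the gene were removed is not stated in the labels. Arrays are labelled biological replicates, but no label ties each array to its own mouse. The p-values therefore speak of the spread between arrays, which may be technical.

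FoxO factors are forkhead proteins that bind DNA and switch on genes of stress resistance, metabolism and cell survival. Insulin and growth factor signalling through the kinase Akt phosphorylates them and restrains them. FoxO6 is the family member known for its expression in brain, including the hippocampus, and it moves less between nucleus and cytoplasm than its relatives. The hippocampus holds dentate granule cells, pyramidal cells of the fields CA1, CA2 and CA3, interneurons and glia, and exploration of new objects is known to induce activity-dependent genes in its neurons.

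Values are log2 signals, so a difference of 1 is a doubling, and differences are given as mutant minus WT. A gene is called when its adjusted p from limma lies under 0.05 over all 19938 genes. The arrays were alike as a whole. Between any pair of learning arrays of the same genotype the correlation across genes was 0.9909 to 0.9959, and between genotypes 0.9894 to 0.9957. The first principal component of the 12 arrays held 28.12% of the variance, and the genotypes overlapped on it. Foxo6 itself, measured by 1 probe, lay between 6.62 and 7.04 in WT (median 6.90) and between 5.98 and 6.38 in the mutant (median 6.28), so the array groups did not overlap. The difference was −0.63 (SE 0.0906, adjusted p = 0.000833), and the exact two-sided permutation test gave p = 0.00216, the smallest possible with 6 arrays against 6. The other FoxO genes were not called. Foxo1 differed by −0.07 (exact permutation p = 0.275), Foxo3 by −0.07 (exact permutation p = 0.455) and Foxo4 by 0.00 (exact permutation p = 0.994).

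In all, 15 of 19938 genes were called (0.0752%), of which 12 were lower in the mutant (0.0602%) and 3 higher (0.015%). The genes that were lower, apart from Foxo6, encode a subunit of respiratory complex I (Ndufs5), a neuropeptide (Grp), a thyroid hormone binding protein (Crym), a lysosomal membrane protein of microglia (Laptm5), a receptor that marks CA1 (Fibcd1), a galactosyltransferase (B3galt2), an actin regulator (Cap1), a ubiquitin ligase adaptor (Klhl2), a chromatin protein (Hmgb2), an RNA processing factor (Thrap3) and a Mediator subunit (Med8). The genes that were higher encode a predicted hydroxypyruvate isomerase (Hyi), a carbohydrate sulfotransferase (Chst8) and an adhesion molecule (Alcam). The array groups did not overlap for 13 of the 15. Over all genes they did not overlap for 74 (0.371%), 38 higher (0.191%) and 36 lower (0.181%) in the mutant. Larger differences than those of the called genes occurred without a call, down to −1.61 (Usp17ld) and up to 1.13 (Olfr767), named only as the ends of the range. An unadjusted p under 0.05 was reached by 1461 genes (7.33%), where 996.9 would be reached by chance if no gene differed.

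**Figure D1:**
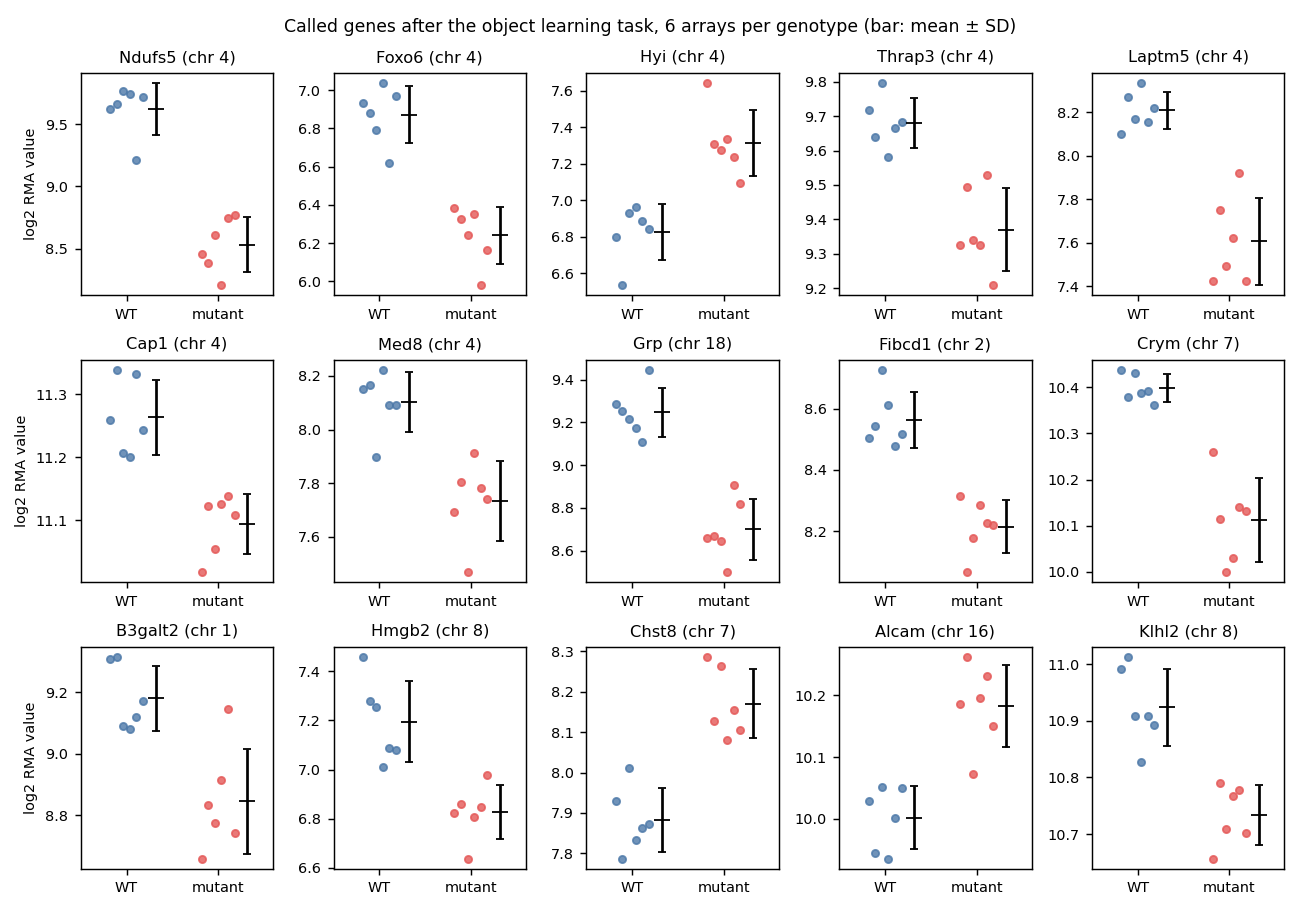
Log2 signal (y axis) of each called gene in the 6 WT arrays (blue) and the 6 mutant arrays (red) after learning. Genes of chromosome 4 come first, the bar gives mean ± SD, the y axes do not start at 0, and the groups overlap only for B3galt2 and Med8, where 5 of 6 mutant arrays lie below the lowest WT array.

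The largest difference among the called genes was in Ndufs5, an accessory subunit of complex I, the first enzyme of the mitochondrial respiratory chain. Its signal lay between 9.21 and 9.76 in WT (median 9.69) and between 8.21 and 8.77 in the mutant (median 8.53), and every mutant array was below every WT array. The difference was −1.09 (SE 0.114, 95% interval −1.32 to −0.86, adjusted p = 3.68e-06), which left 47.0% of the WT signal. Ndufs5 was not joined by the rest of its complex. Of the 33 other complex I subunits measured, 29 lay above WT and 4 below, none was called, and they ranged from −0.20 (Ndufa12) to 0.18 (Ndufa3) with a median of 0.04, against a median of 0.00 over all genes. Ndufa12 and Ndufa3 are named only as the ends of that range.

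The gene with the next smallest p was Grp, gastrin-releasing peptide, a bombesin-like neuropeptide that excites interneurons through its receptor. It lay between 9.11 and 9.44 in WT (median 9.23) and between 8.50 and 8.91 in the mutant (median 8.66), with no overlap. The difference was −0.55 (SE 0.0672, 95% interval −0.69 to −0.41, adjusted p = 5.49e-05), or 68.4% of the WT signal. The other 4 genes of the bombesin-like family, peptides and receptors, were not called and lay between −0.10 (Grpr, the receptor of Grp) and 0.17 (Brs3). The wider list of 21 neuropeptides and granins, which does not hold Grp, had 16 members above WT and 5 below, with a median of 0.06. None was called. Their mean was above the WT mean in 6 of 6 mutant arrays, and the members with the smallest p were the interneuron peptides Sst at 0.18 (adjusted p = 0.506) and Vip at 0.21 (adjusted p = 0.596).

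Crym and Thrap3, the 2 called members of the list of thyroid hormone handling and response, were lower. Crym, μ-crystallin, binds thyroid hormone in the cytosol. It lay between 10.36 and 10.44 in WT (median 10.39) and between 10.00 and 10.26 in the mutant (median 10.12). The difference was −0.29 (SE 0.0516, adjusted p = 0.0141), and the groups did not overlap. Thrap3, a protein first named for its association with the thyroid hormone receptor and known for its role in RNA splicing, lay between 9.58 and 9.80 in WT (median 9.67) and between 9.21 and 9.53 in the mutant (median 9.33). It differed by −0.31 (SE 0.047, adjusted p = 0.00133), again without overlap. Thrap3 lies on chromosome 4, 5.90 Mb from Foxo6. Of the 13 genes of thyroid hormone handling and response measured, these 2 were called and 9 lay above WT, so the list as a whole had a median of 0.03.

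Fibcd1 and Laptm5 are used as markers of cell types, and each stood apart from the other markers of its type. Fibcd1, a receptor for acetylated groups that is enriched in CA1 pyramidal cells, lay between 8.48 and 8.73 in WT (median 8.53) and between 8.07 and 8.31 in the mutant (median 8.22), with no overlap. The difference was −0.35 (SE 0.0557, adjusted p = 0.00226). The other 5 CA1 markers measured lay between −0.07 (Mpped1) and 0.14 (Wfs1), with 4 above WT and 0 called. Laptm5, a lysosomal protein of microglia and other immune cells, lay between 8.10 and 8.33 in WT (median 8.19) and between 7.42 and 7.92 in the mutant (median 7.56). It differed by −0.60 (SE 0.0931, adjusted p = 0.00148), with no overlap. Of the 13 other microglial markers, 7 were above WT and 6 below, between −0.08 (Siglech) and 0.09 (Trem2), and 0 reached an unadjusted p under 0.05 (background 7.33%). In bulk tissue, fewer cells of a type and less RNA per cell cannot be told apart.

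Enzymes that build sugar chains were called in both directions. B3galt2 transfers galactose onto glycans and lay between 9.08 and 9.31 in WT (median 9.14) and between 8.66 and 9.15 in the mutant (median 8.81). The difference was −0.33 (SE 0.0623, adjusted p = 0.0184), and 1 mutant array reached into the WT range. Chst8, which adds sulfate to N-acetylgalactosamine of certain glycoproteins, lay between 7.79 and 8.01 in WT (median 7.87) and between 8.08 and 8.29 in the mutant (median 8.14). It was 1.22-fold higher, a difference of 0.29 (SE 0.0554, adjusted p = 0.0245), with no overlap. Of the 21 galactosyltransferases and sulfotransferases measured, 11 lay above WT and 10 below, and 6 (28.6%) had an unadjusted p under 0.05, against 7.33% of all genes.

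Alcam and Klhl2 had the smallest differences among the called genes of other chromosomes. Alcam, an adhesion molecule of the immunoglobulin superfamily that guides axons, lay between 9.94 and 10.05 in WT (median 10.01) and between 10.07 and 10.26 in the mutant (median 10.19), a difference of 0.18 (SE 0.036, adjusted p = 0.035) with no overlap. It was the 1 called gene among 25 integrins and adhesion molecules, of which 13 lay above WT. Klhl2, an actin-binding adaptor of a cullin ubiquitin ligase, lay between 10.83 and 11.01 in WT (median 10.91) and between 10.66 and 10.79 in the mutant (median 10.74). It differed by −0.19 (SE 0.0379, adjusted p = 0.035), with no overlap. Among the 24 Kelch-like genes measured it was the 1 called, and 15 lay below WT.

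Hmgb2, a chromatin protein with HMG boxes that is abundant in dividing cells, lay between 7.01 and 7.46 in WT (median 7.17) and between 6.64 and 6.98 in the mutant (median 6.84). The difference was −0.37 (SE 0.0707, adjusted p = 0.0245), with no overlap. It is the 1 called gene with more than 1 probe, and all 4 probes lay below WT, with differences of −0.37, −0.32, −0.30 and −0.16. With the mean of the 4 probes the difference was −0.29 and Hmgb2 was not called (adjusted p = 0.185). The annotation puts the gene on chromosome 8. Of the probes with the nearest identifiers, 12 of 12 lie on chromosome 8 for the probe at −0.32 (unadjusted p = 0.000554). For the other 3 probes most lie on chromosome 4: 8 of 11 for the probe used here, 8 of 11 for the probe at −0.16 and 7 of 9 for the probe at −0.30. Which locus these 3 probes measure was not tested, so the 4 probes are not 4 measurements of 1 known locus. The markers of dividing cells and new neurons, where Hmgb2 is also expressed, showed no shared direction: 8 of 14 lay above WT and 6 below. Of these markers 0 were called. The members with the smallest p were Stmn1, a tubulin regulator of young neurons, at 0.14 and Birc5, a mitotic gene, at 0.16. Stmn1 lies on chromosome 4, 14.2 Mb from Foxo6.

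Of the 15 called genes, 7 lie on chromosome 4 within 20 Mb of Foxo6, all positions being those of GRCm38.p6. Foxo6, Ndufs5, Thrap3, Laptm5, Cap1 and Med8 were lower and Hyi was higher. Cap1, an adenylyl cyclase-associated protein that speeds actin turnover, lay between 11.20 and 11.34 in WT (median 11.25) and between 11.02 and 11.14 in the mutant (median 11.12), a difference of −0.17 (SE 0.0313, adjusted p = 0.0184) with no overlap. Hyi lay between 6.54 and 6.96 in WT (median 6.87) and between 7.10 and 7.64 in the mutant (median 7.29). It was 1.40-fold higher, a difference of 0.49 (SE 0.0736, adjusted p = 0.00133), with no overlap. Med8, a subunit of the Mediator complex that links transcription factors to RNA polymerase II, lay between 7.90 and 8.22 in WT (median 8.12) and between 7.47 and 7.91 in the mutant (median 7.76). It differed by −0.37 (SE 0.0755, adjusted p = 0.044), and 1 mutant array reached into the WT range. The other 27 Mediator subunits measured were not called and lay between −0.12 (Med18) and 0.11 (Med29).

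**Figure D2:**
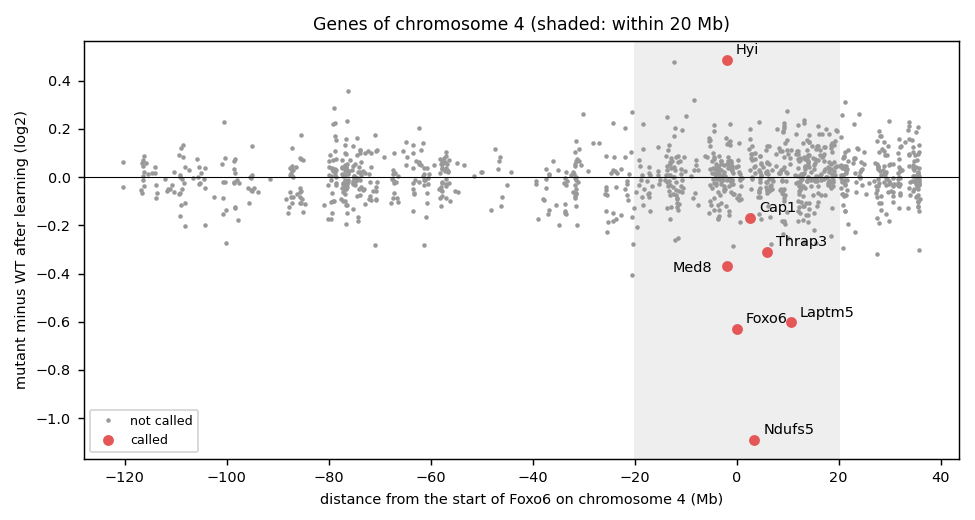
Mutant minus WT difference after learning (y axis, log2) of the genes of chromosome 4 against their distance from the start of Foxo6 (x axis, Mb), 1 point per gene with called genes in red. The 7 called genes, Ndufs5 at −1.09 the lowest and Hyi at 0.49 the highest of them, lie inside the shaded 20 Mb, and 0 of 654 genes farther out on the chromosome were called.

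The share of called genes was highest close to Foxo6. Within 5 Mb 5 of 158 genes were called (3.16%), at 5 to 10 Mb 1 of 93 (1.08%), at 10 to 20 Mb 1 of 249 (0.402%), farther out on chromosome 4 0 of 654, and on other chromosomes 8 of 18701 (0.0428%). The 5 include Foxo6, the mutated gene, and without it 4 of 157 (2.55%) were called within 5 Mb. Hmgb2 is counted among the 8 by its annotation, though most probes with identifiers nearest to its probe lie on chromosome 4. The unadjusted p under 0.05 followed another order: it was reached by 13.3% of genes within 5 Mb, 24.7% at 5 to 10 Mb, 16.5% at 10 to 20 Mb, 9.48% farther out and 6.99% on other chromosomes. These genes lay on both sides of WT in each interval, for example 12 higher and 11 lower at 5 to 10 Mb. Around a mutation that was moved from one mouse strain into another, linked genes can carry the donor strain's alleles. Genotypes of the flanking genes were not used here, so loss of FoxO6 and linked alleles cannot be told apart for the 6 neighbours of Foxo6. The strain is given as mixed, and genotypes at other loci were not used either. Whether alleles differed between the groups at the 8 called genes of other chromosomes was not tested.

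Promoters were read for the called genes, since a FoxO factor binds short sites in DNA and these genes differed in its absence. RefSeq promoter windows of GRCm38.p6, 250 bases before to 50 after the start, were found for 10 of the 15. The window of Ndufs5, the called gene with the largest difference, and that of Cap1, the only 1 of the 10 with a match to either motif searched, read as follows on their own strand, with the match in capitals.
Ndufs5 promoter (GRCm38.p6, chr4:123718137-123718436, minus strand): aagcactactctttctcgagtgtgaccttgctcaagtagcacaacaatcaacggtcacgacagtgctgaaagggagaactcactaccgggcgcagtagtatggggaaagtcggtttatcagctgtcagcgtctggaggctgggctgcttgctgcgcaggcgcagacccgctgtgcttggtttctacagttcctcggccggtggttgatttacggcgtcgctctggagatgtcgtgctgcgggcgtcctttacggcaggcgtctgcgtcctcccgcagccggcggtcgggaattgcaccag
Cap1 promoter (GRCm38.p6, chr4:122886027-122886326, minus strand): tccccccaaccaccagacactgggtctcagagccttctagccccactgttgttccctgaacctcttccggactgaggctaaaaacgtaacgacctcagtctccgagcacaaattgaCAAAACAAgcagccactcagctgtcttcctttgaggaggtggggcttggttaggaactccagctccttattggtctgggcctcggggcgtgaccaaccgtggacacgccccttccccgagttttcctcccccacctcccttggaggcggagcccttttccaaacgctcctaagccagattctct
The core motif GTAAACA, on either strand, was in 0 of the 10 windows and in 3.65% of all 32851 promoter windows. The insulin response motif CAAAACAA, on either strand, was in 1 of 10, in Cap1 134 bases before the start, and in 2.51% of all windows. The Ndufs5 window held 25 CG dinucleotides and 59% G and C, and the Cap1 window 11 and 57%. Neither motif holds the other, though both hold AAACA. A match is a description of the letters and not of binding.

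Most called genes differed in the same direction at basal state, on other arrays. Both states share the same estimate of spread for a gene, so their calls are not fully separate. Of the 15, 14 had the same sign at basal and 10 were also called there. In all, 20 of 19938 genes (0.1%) were called at basal, 9 higher (0.0451%) and 11 lower (0.0552%), and 898 (4.5%) had an unadjusted p under 0.05. Over all genes 11485 lay above WT at basal and 8453 below, with a median of 0.01. The basal and learning differences were −0.87 and −1.09 for Ndufs5, −0.53 and −0.55 for Grp, −0.34 and −0.35 for Fibcd1, −0.34 and −0.29 for Crym, and 0.20 and 0.18 for Alcam. The 5 not called at basal were B3galt2 (−0.22, adjusted p = 0.378), Med8 (−0.33, adjusted p = 0.104), Cap1 (−0.07), Chst8 (0.12) and Hmgb2 (0.02). Whether the genotype difference itself changed with the task was tested as an interaction over all genes. By limma 0 genes were called (0%), 510 (2.56%) had an unadjusted p under 0.05, and 0 were called under any alternative run.

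**Figure D3:**
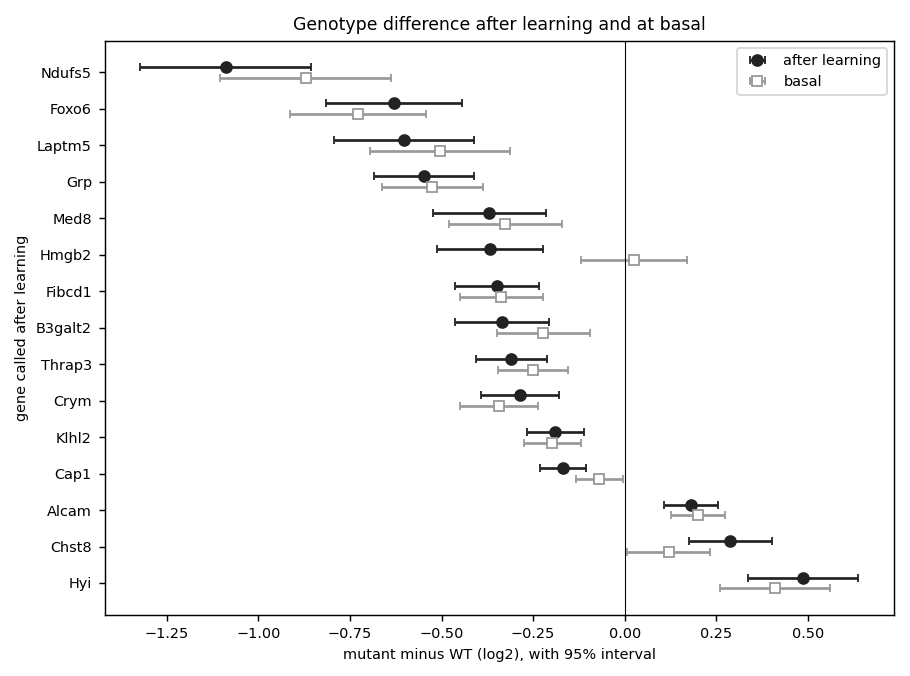
Mutant minus WT difference (x axis, log2) of the 15 genes called after learning, with 95% intervals, after learning (black circles) and at basal (open grey squares). The points of Hmgb2 lie farthest apart, at −0.37 after learning and 0.02 at basal, and the intervals of the 2 states overlap for the other 14 genes.

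Among the 15 called genes, 3 had an unadjusted interaction p from limma under 0.05, against 2.56% of all genes. The 15 were picked by their learning difference, which is part of the interaction. The count and the values below are therefore no separate evidence of a change with the task. The interaction, the learning difference minus the basal one, was −0.39 for Hmgb2 (95% interval −0.60 to −0.19), −0.10 for Cap1 (−0.19 to −0.01) and 0.17 for Chst8 (0.01 to 0.33). For Hmgb2 limma gave an unadjusted p of 0.000492, and for all 3 genes an adjusted p of 1.00. The intervals of the others held 0, for example −0.22 (−0.55 to 0.11) for Ndufs5 and −0.02 (−0.22 to 0.17) for Grp. Besides Hmgb2, the genes with the smallest interaction p were Spry2, an inhibitor of growth factor signalling, at −0.40, Chek1, a DNA damage checkpoint kinase, at −0.43, Atp6v1c2, a subunit of the vacuolar proton pump, at 0.51, and Gjd2, the neuronal gap junction protein connexin 36, at −0.35. None was called, and their learning differences were −0.16, −0.27, 0.32 and −0.25.

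No activity-induced gene of the lists was called, where 0.0752% of all genes were. At that share, 0 calls in lists of 22 and 25 genes say little. Of 22 immediate early transcription factors, 11 lay above WT and 11 below, with a median of −0.00 and 0 called. Against 7.33% of all genes, 2 (9.09%) had an unadjusted p under 0.05. These were Jun, at −0.19 (unadjusted p = 0.00198, adjusted p = 0.334), which lies 25.2 Mb from Foxo6, and Nr4a3, an orphan nuclear receptor, at 0.11. The effectors of activity, 25 genes of synapse and signalling, had 10 above and 15 below, a median of −0.01 and 0 called, with Sik1, a salt-inducible kinase, at 0.13 and Vgf, a secreted neurotrophic peptide precursor, at 0.10. Both list medians turned sign under quantile normalization. The widely used activity markers, named after their values were seen, were Fos at 0.07 (SE 0.104), Npas4 at 0.08 (SE 0.13), Arc at 0.10 (SE 0.0875), Egr1 at 0.02 (SE 0.0668) and Bdnf at −0.03 (SE 0.0641).

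FoxO target genes of stress resistance, cell cycle arrest and autophagy were not called, where 0.0752% of all genes were. Of 30 measured, 20 lay below WT and 10 above, with a median of −0.03, and 6 of 6 mutant arrays had a lower list mean than the WT average. An unadjusted p under 0.05 was reached by 2 of 30 (6.67%), against 7.33% of all genes. At basal 15 of the 30 lay below WT and 15 above, where 8453 of all genes lay below and 11485 above. The members with the smallest p were Txnip, the thioredoxin-interacting protein, and Sesn1, a sestrin. Txnip lay between 8.21 and 8.92 in WT (median 8.47) and between 8.10 and 8.30 in the mutant (median 8.17), a difference of −0.32 (adjusted p = 0.302), and Sesn1 differed by −0.14 (adjusted p = 0.596). The 7 MEF2 factors and class IIa deacetylases, partners in activity-dependent transcription, had 5 above and 2 below with a median of 0.02, which turned to −0.01 when all probes of a gene were averaged.

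Genes of the synapse showed 0 calls in each list. Of all genes 0.0752% were called, so 0 calls in lists this short say little. Of 28 glutamate receptor genes, 14 lay above and 14 below WT, with the AMPA receptor subunit Gria1 at −0.10 (adjusted p = 0.427) and the NMDA receptor subunit Grin2c at 0.15 (adjusted p = 0.559), whose groups did not overlap. Of 24 postsynaptic scaffold and adhesion genes, 14 lay above, with Nrxn2, a neurexin, and Dlgap4, a scaffold protein, each at 0.09. The 24 genes of transmitter release had 13 above and 11 below, and 5 (20.8%) reached an unadjusted p under 0.05, against 7.33% of all genes. Among the 5 were the calcium sensor Syt2 at −0.20 and the active zone protein Rims1 at 0.09. The 12 genes of inhibitory synapses lay between −0.11 (Gabrg1) and 0.06 (Gabra5). Of 39 potassium channels 22 lay above, with Kcnv1, a silent subunit of voltage-gated channels, at 0.16 (adjusted p = 0.458), which was called at basal at 0.29 (adjusted p = 0.0151). Its interaction was −0.13 (95% interval −0.29 to 0.02).

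Axon guidance and modulator receptors also held 0 calls, where 0.0752% of all genes were called. Of 31 semaphorins and their receptors, 18 lay above and 13 below WT, with Sema6c at −0.15 without overlap and Sema3f at 0.15. Of 14 serotonin and orexin receptors, 9 lay above and 5 below, with a median of 0.10, and 5 (35.7%) had an unadjusted p under 0.05, against 7.33% of all genes. Hcrtr1, the orexin receptor 1, lay between 5.86 and 6.29 in WT (median 6.21) and between 6.31 and 6.73 in the mutant (median 6.38), a difference of 0.28 (adjusted p = 0.319) with no overlap. Hcrtr1 lies 9.86 Mb from Foxo6. The serotonin receptor gene Htr2a lay between 8.69 and 8.98 in WT (median 8.81) and between 8.94 and 9.15 in the mutant (median 9.06), a difference of 0.21 (adjusted p = 0.40).

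**Figure D4:**
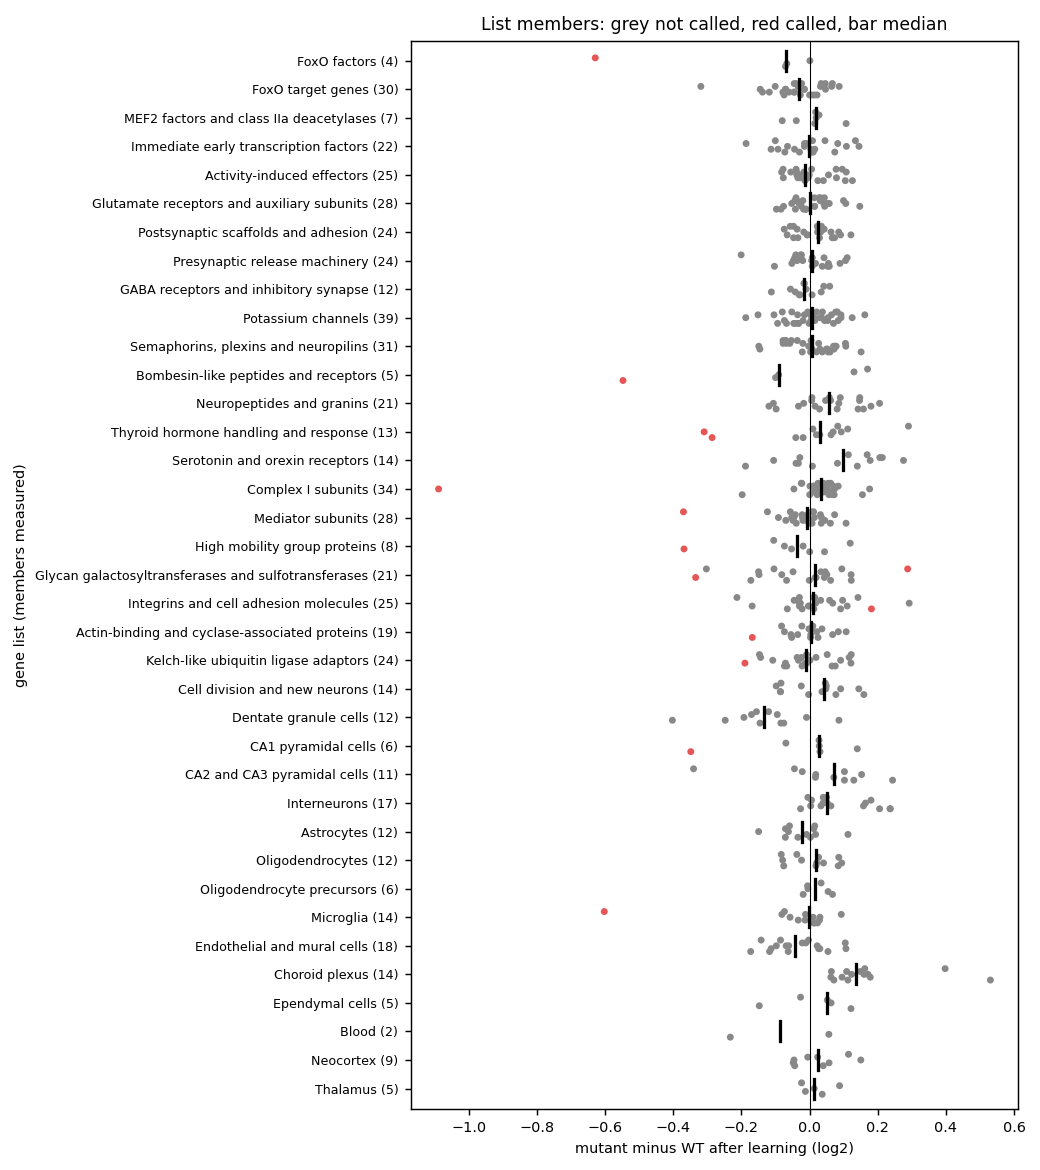
Mutant minus WT difference after learning (x axis, log2) of each measured member of 37 gene lists (y axis, members measured in brackets), with called members in red, others in grey and a bar at the list's median. At most 2 members of a list were called, and the medians farthest from 0 include those of the dentate granule (−0.13) and choroid plexus (0.14) markers.

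Markers of hippocampal neurons had array means of 8.29 to 8.56 for dentate, 8.64 to 8.81 for CA1 and 7.70 to 7.87 for CA2 and CA3. Signals of different probes cannot be ranked against each other, so these means describe the arrays and do not test the dissection. Some marker lists lay to one side of WT, though no list had more than 1 called member. Over all genes, 7.33% had an unadjusted p under 0.05 after learning. At basal 11485 of all genes lay above WT and 8453 below. Of 12 dentate granule cell markers 11 lay below WT, with a median of −0.13 and 5 (41.7%) at an unadjusted p under 0.05. Their summed level, as a mean per array, was 8.35 to 8.56 in WT and 8.29 to 8.40 in the mutant, and 6 of 6 mutant arrays lay under the WT average. Trpc6, a calcium-permeable channel enriched in granule cells, differed by −0.40 (unadjusted p = 0.000569, adjusted p = 0.242) and C1ql2, a synaptic protein of mossy fibres, by −0.25 (adjusted p = 0.499). At basal 11 of 12 also lay below WT, with a median of −0.17. Interneuron markers lay on the other side: 15 of 17 were above WT, 5 (29.4%) at an unadjusted p under 0.05, with array means of 8.43 to 8.62 in WT and 8.58 to 8.64 in the mutant. At basal 16 of 17 lay above WT. Calb2, the calcium-binding protein calretinin, lay between 8.38 and 8.58 in WT (median 8.50) and between 8.62 and 8.84 in the mutant (median 8.72), a difference of 0.24 (adjusted p = 0.427) with no overlap.

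The CA2 and CA3 markers had 8 of 11 above WT, with Prss35, a protease-like protein, at −0.34 (adjusted p = 0.222) and Bok, a relative of the apoptosis regulator BCL2, at 0.24 (adjusted p = 0.545). All 14 choroid plexus markers lay above WT, with 0 called and 0 at an unadjusted p under 0.05, and all 14 also lay above WT at basal (median 0.18). Their array means were 5.85 to 6.14 in WT and 5.83 to 6.72 in the mutant, 4 of 6 mutant arrays lay above the WT mean, and mutant array 6 was the highest. Endothelial and mural markers had 12 of 18 below WT, with the tight junction gene Cldn5 at −0.17 and the pericyte gene Rgs5 at 0.11. Astrocyte (7 of 12 below), oligodendrocyte (5 of 12 below), precursor (3 of 6 below), ependymal (2 of 5 below), neocortex (4 of 9 below) and thalamus (2 of 5 below) markers had medians between −0.02 and 0.05. Of the 7 blood genes 2 were measured, Alas2 at −0.23 and Slc4a1 at 0.06. Array signals have no true 0, so the absence of a cell type cannot be read from them.

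**Figure D5:**
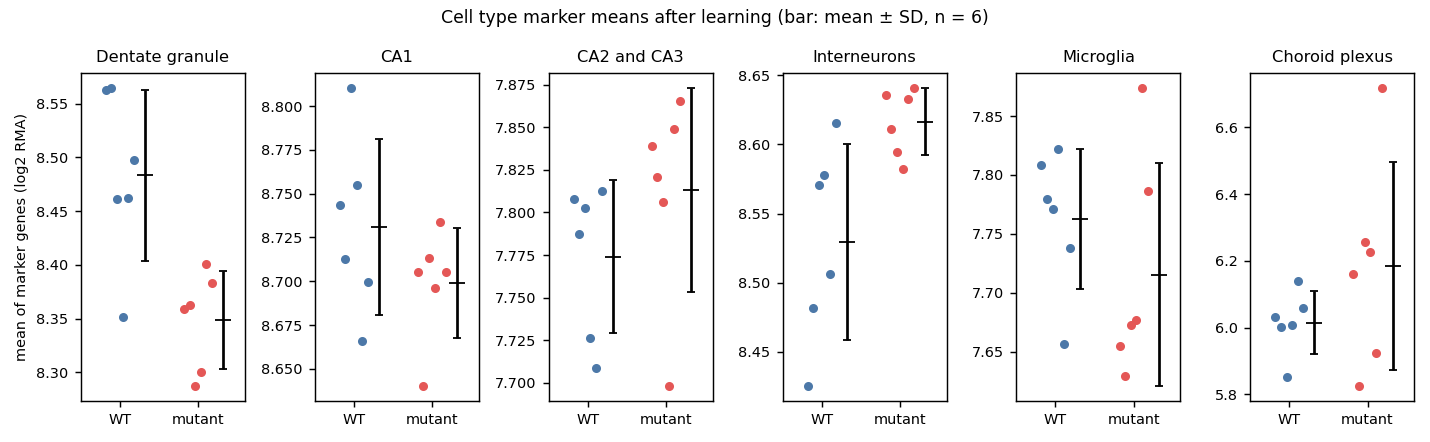
Mean log2 signal (y axis) of the markers of 6 cell types in each of the 6 WT (blue) and 6 mutant (red) arrays after learning, with mean ± SD as bars and y axes that do not start at 0. Dentate granule means were 8.35 to 8.56 in WT and 8.29 to 8.40 in the mutant, and 1 mutant array reached 6.72 for choroid plexus.

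With each array's mean of the dentate markers as a covariate, 3 of the 15 genes remained called, Ndufs5 (−0.98, adjusted p = 0.00348), Grp (−0.56, adjusted p = 0.00531) and Foxo6 (−0.66, adjusted p = 0.028). All 15 kept their sign. Klhl2 was at −0.11, 56.5% of its difference without the covariate, and the other 14 kept between 75.3% (Hmgb2) and 107% (Alcam). The SE of the 15 genes was 1.09 to 1.28 times as large. With the choroid plexus mean as covariate 13 were called. The mean of the dentate markers itself lay under the WT average in 6 of 6 mutant arrays, so this covariate overlaps with genotype. Why calls were lost was not tested. Ndufs5, Grp and Foxo6 were called in every alternative that included them. Those 3 and Hyi, Thrap3, Laptm5 and Fibcd1 were called with any 1 of the 12 learning arrays left out. Crym lost its call without mutant array 3 (adjusted p = 0.0609). The other 7 lost theirs in 4 to 10 of the 12 fits, with adjusted p up to 0.148. The number of calls was 8 without mutant array 1, 9 without mutant array 3 and 8 without WT array 2.

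Below the threshold, the genes with the smallest p were mostly of other chromosomes, and they are given as values only. Prag1, a pseudokinase that regulates the cytoskeleton, lay between 7.39 and 7.72 in WT (median 7.64) and between 7.78 and 8.10 in the mutant (median 7.97), a difference of 0.35 (adjusted p = 0.0745) with no overlap. Pgm1, a phosphoglucomutase of glycogen metabolism, was at −0.28 (adjusted p = 0.0745) and lies 20.3 Mb from Foxo6, just outside the window of 20 Mb. Plagl1, an imprinted zinc finger factor, was at −0.30 (adjusted p = 0.0896), Pde7b, a cyclic AMP phosphodiesterase, at −0.24 (adjusted p = 0.137) and Myo1e, an unconventional myosin, at −0.27 (adjusted p = 0.118). The noncoding RNA component of ribonuclease P, Rpph1, was at 0.46 (adjusted p = 0.153) and Rprl1, named as a relative of it, at 0.32 (adjusted p = 0.0896). Nfe2, a leucine zipper factor of blood cells, was at 0.40, Csta2 at 0.36 and Fam13a at −0.29. Of these 10 genes, Prag1, Nfe2, Myo1e and Csta2 had groups that did not overlap, against 74 of all 19938 genes (0.371%). The 10 were picked by their p in the same arrays, so this count is no separate evidence. Csta2 had a low signal, with medians of 3.82 in WT and 4.22 in the mutant, where the array medians were 6.16 to 6.30.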

How the data were processed

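RNA of whole dissected hippocampus was hybridised to Affymetrix Mouse Gene 1.0 ST arrays. Values are log2 signals as deposited, made by RMA per the submitters' processing notes, which give no version. The 35511 probes hold 21789 with 1 gene symbol in GEO's platform annotation, 1621 with several and 12101 with none. Probes with 1 symbol were used, and for the 999 genes with several such probes the one with the highest mean, which gave 19938 genes, 19855 with a position in GRCm38.p6. No dim gene was removed. Medians of the arrays were 6.16 to 6.30, so the deposited values still differ in level between arrays, and centring and quantile normalization were run as alternatives. The number of arrays limits the precision.

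In R 4.3.3, limma 3.58.1 (lmFit, contrasts.fit, eBayes with trend) was fitted to all 24 arrays with 1 mean per group and 20 residual degrees of freedom. P-values are two-sided with Benjamini-Hochberg adjustment across the 19938 genes. On simulated data of the same size for this comparison it called 43.3% of 67 genes changed by 0.25, 97.0% of 67 changed by 0.5 and 100% of 66 changed by 1, and 12 unchanged genes. The simulation held 200 changed genes and gave each gene its own independent noise, so these shares may not hold for the real arrays. The 37 lists hold 653 members, 38 of them not matched. The comparison and lists were chosen with earlier results of these data known, so no list was tested. Named are the FoxO genes, every called gene, the 10 uncalled genes with the smallest p, from each list its called members or otherwise the 2 with the smallest p, and the 5 smallest interaction p. Uncalled pseudogenes, clone names and chemosensory receptors (olfactory, vomeronasal) were passed over. Others were named after their values were seen, as the ends of a range or as well-known markers. For some lists counts and medians stand alone. Deviations of same-numbered learning arrays correlated above 0.1 in 1 of 6 pairs, so the numbers were not taken to pair arrays.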

Additional observations from a re-analysis of the deposited data

Results flagged for a closer look

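Of 66 sets of 6 arrays of a genotype after learning, tested for a single value far from the rest, 4 stood out, where chance gives about 1 in 20. Ndufs5 in WT array 5 was 9.21, and the other WT arrays lay between 9.62 and 9.76. This value is still above every mutant array, and Ndufs5 was called without it. Foxo1 in mutant array 3 was 8.37, and the other mutant arrays lay between 8.58 and 8.67. Plagl1 in mutant array 2 was 7.55, and the others lay between 7.21 and 7.33. Fam13a in mutant array 3 was 7.25, and the others lay between 7.53 and 7.69.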

How the results depend on the processing

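The 15 calls after learning became 7 with the 12 learning arrays alone, 9 with each array centred on its median (2 higher, 7 lower), 9 without the mean-variance trend, 9 with array weights, 6 without genes within 20 Mb of Foxo6, 3 with the dentate covariate and 28 over every probe of the table (12 higher, 16 lower). Except over every probe, all of these were among the 15. Under quantile normalization 19 were called, 7 higher and 12 lower. With 1 array left out the count was 8 to 16: 8 without mutant array 1, 9 without mutant array 3 and 8 without WT array 2. The replicate numbers do not pair the arrays by the check (2 of 12 arrays correlated best with their own number), and with the replicate block 11 genes were called, 1 higher and 10 lower. At basal, centring gave 10 calls. The cause of these changes was not tested, apart from the fewer arrays or genes in the fits that leave some out. The learning difference of each of the 15 called genes kept its sign in every alternative that included the gene. Of 111 list medians checked under scaling and probe choice, 10 turned sign, in 8 lists: immediate early factors, activity effectors, glutamate receptors, Mediator, Kelch-like, actin-binding, MEF2 and microglia. The median of all genes lay at 0.00 in the main fit. No measure of signal over background was used, so low signals such as Foxo6 in the mutant have no stated floor.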

Other observations

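The comparisons above used only probes with 1 gene symbol. Over all 35511 probes 28 were called (0.0788%), of which 13 carry 1 gene, 6 several gene symbols and 9 none. The 6 with several symbols all carry the same annotation. They are all 6 probes with that annotation, and all were higher in the mutant, by 0.39 to 0.54, with no overlap between the genotypes. Of the 9 probes with no gene, 3 were higher and 6 lower, from −1.49 to 0.60. The lowest of them lay further from WT than Ndufs5, but with a larger SE (0.291, adjusted p from limma over all probes 0.0417). What these 9 probes measure is not given by the annotation.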
